A study of Mus musculus with 16 samples.

Results

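Expression of genes on chromosomes 1 to 19 was compared between males and females in the terminal ileum of control mice. The genes were the rows of the raw count table that lie on those chromosomes, 23791 of 24940, and the animals were the 4 male (MWT) and 4 female (FWT) controls of 16 mice sequenced. All 8 controls were Bcl6fl/fl mice, whose Bcl6 gene carries loxP sites and stays intact because they lack Cre recombinase. The labels give the strain as C57BL/6 and the tissue as terminal ileum, and the study took the piece just in front of the cecum. Ages, and which animals were fed or fasted, are not given in the sources used here. The other 8 mice (4 MLKO and 4 FLKO) were Bcl6LKO animals, which carry the same floxed gene and Cre driven by the albumin promoter, so that Bcl6 is deleted in hepatocytes. They served as separate animals in which the same genes could be read. Each library has its own number in the labels, which do not otherwise say how the animals were related, so p-values measure the spread between these samples.

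The ileal lining renews itself from Lgr5-positive stem cells at the base of the crypts. Paneth cells sit between these stem cells and release antimicrobial proteins, chiefly alpha-defensins and lysozyme. Enterocytes mature as they move up the villus and are shed at its tip. Ileal enterocytes also recover bile acids: Slc10a2 (ASBT) takes them up, Fabp6 (IBABP) binds them in the cell, Slc51a and Slc51b (OSTα and OSTβ) export them, and the bile acid receptor FXR (Nr1h4) induces the hormone Fgf15.

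Gene counts totalled 15739601 to 19991678 per control library, and at least 1 count was found for 17362 to 17563 autosomal genes per library. Values are given as CPM, the counts of a gene relative to the library total after TMM scaling, which is the normalisation of edgeR. A count of 0 allows up to 3 counts, which equals 0.152 to 0.192 CPM, counting error only. Xist ranged from 450 to 536 CPM in FWT and reached at most 0.283 CPM in MWT, and Ddx3y ranged from 24.9 to 33.7 CPM in MWT with 0 counts in FWT, so the labelled sexes matched. No library was a copy of another: across the 12 pairs of replicates the chi-square of the counts divided by its degrees of freedom lay between 9.26 and 22.6. MWT replicate 4 stood apart on the first principal component (24.2% of the variance), and MWT replicate 2 lay closest to the females. The 12 ileal marker genes summed to 5850 to 8150 CPM in MWT and 7940 to 10200 CPM in FWT. Their median log2 difference (male minus female) was -0.106, with 8 negative and 4 positive. Pancreatic acinar markers summed to at most 18.3 CPM and colon markers to 528 to 1550 CPM. In pieces of whole tissue, fewer cells of a type and less RNA per cell cannot be told apart.

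Few autosomal genes passed the edgeR threshold between the sexes. Of 14750 autosomal genes tested, 30 passed an adjusted p of 0.05 (0.203%), with 10 higher (0.0678%) and 20 lower (0.136%) in males. Among the lower genes were 5 alpha-defensin rows, the stem cell gene Lgr5, the actin gene Acta1 and the stromal genes Cd34 and Lum, and among the higher ones the protease Prss30, Clca4b and the glycolytic gene Pkm. The 10 higher genes differed by 1.28- to 1.84-fold and the 20 lower genes by 1.30- to 2.11-fold. The 30 genes lay on 14 chromosomes, 8 of them on chromosome 8, and since 3 pairs have overlapping intervals on the same strand they represent 27 loci. In each of the 30 genes the MWT and FWT libraries did not overlap, but this also held for 595 genes higher in males (4.03%) and 616 lower in males (4.18%) among all those tested. These shares are the background for every count of genes without overlap given below.

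This count rested on a narrow margin. Of the 30 adjusted p-values, 27 lay above 0.03. The adjustment ran over all 15229 genes tested, and 8 genes outside chromosomes 1 to 19 also passed. The count of 30 depends on including the genes of those other chromosomes, because adjusting over autosomal genes alone left 2 genes, Acta1 and Prss30. With 1 library left out the count was 1 without FWT replicate 2, 2 without MWT replicate 1, 5 without MWT replicate 3, 9 without MWT replicate 4, 12 without FWT replicate 3 and 56 without FWT replicate 4. It was 31 without MWT replicate 2 and 24 without FWT replicate 1, but only 12 and 10 of these were among the 30. Scaling by RLE in place of TMM left 10 higher and 9 lower genes. Without adjustment, 2043 genes had a p under 0.05, 926 higher and 1117 lower. DESeq2 called 238 of the 13055 genes to which it gave an adjusted p (1.82%), 127 higher and 111 lower, and these included all 30. Below, a gene is said to be called where edgeR called it, unless DESeq2 is named. Over 22 alternative analyses Acta1 passed in 21, Prss30 in 19 and Gm3336 in 16. The other 27 genes passed in 4 to 14, the lowest being Tmem8b (4), Lgr5, Hmcn1 and Rnase4 (5 each), and Nrep and Emp2 (6 each).

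**Figure D1:**
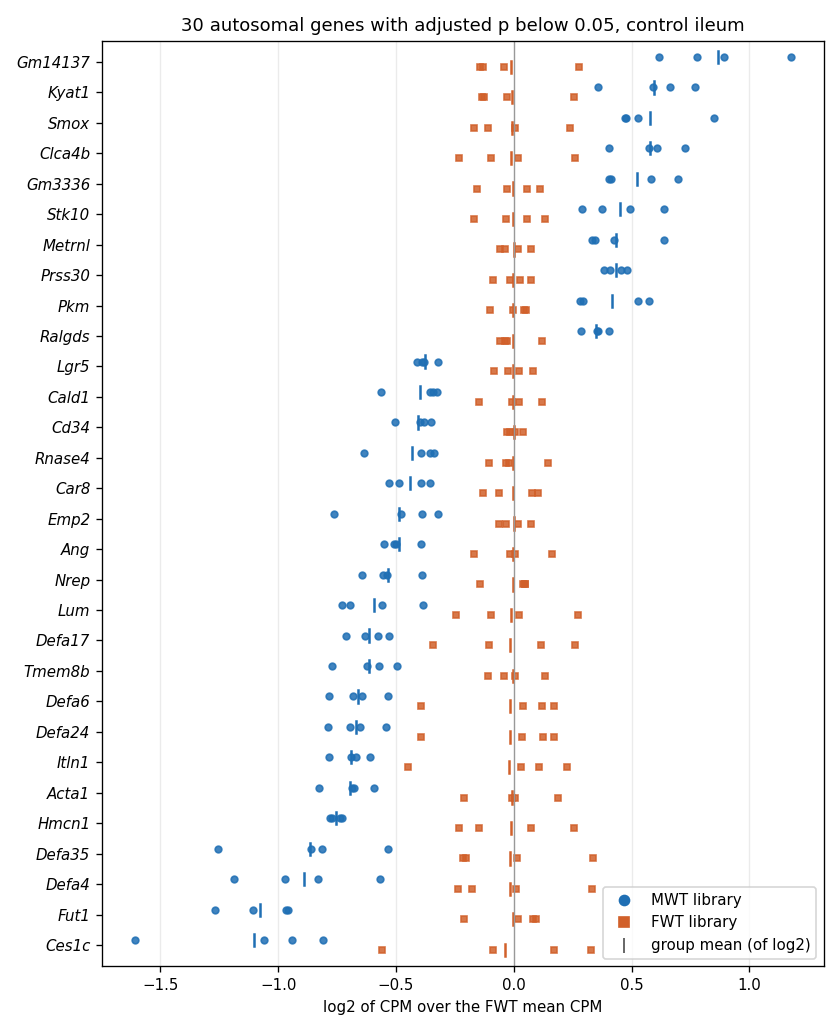
The 30 autosomal genes with an edgeR adjusted p below 0.05, each row a gene, with the log2 of each library's CPM over the mean of the 4 FWT libraries on the horizontal axis. Circles are the 4 MWT libraries, squares the 4 FWT libraries and vertical ticks the group means of log2 values; 10 genes lie to the right and 20 to the left, with no overlap of the groups in any row.

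Since 5 of the 8 calls on chromosome 8 were rows of the alpha-defensin cluster, the sequences upstream of some of these genes are shown first. Promoters were taken from RefSeq (GRCm38.p6, the mm10 assembly), which held 8 of the 19 tested rows of the cluster. Each of the lines below gives the 150 bases before the start site on the plus strand, 5′ to 3′. Defa35 was the only called row among these 8, and the called rows Defa24, Defa6, Defa17 and Defa4 had no promoter there. Defa30 and Defa22 are abundant members that DESeq2 called and edgeR did not. The capitals mark ATCAAAG, the reverse complement of CTTTGAT, which is a core sequence recognised by TCF factors of the Wnt pathway, and TATAAA.
Defa35, chr8:21064888-21065037: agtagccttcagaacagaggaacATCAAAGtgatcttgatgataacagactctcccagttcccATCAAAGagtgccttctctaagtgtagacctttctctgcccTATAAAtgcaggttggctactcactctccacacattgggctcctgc
Defa30, chr8:21134500-21134649: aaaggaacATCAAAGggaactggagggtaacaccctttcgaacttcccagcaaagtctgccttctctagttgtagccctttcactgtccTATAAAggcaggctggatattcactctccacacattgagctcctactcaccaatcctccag
Defa22, chr8:21162127-21162276: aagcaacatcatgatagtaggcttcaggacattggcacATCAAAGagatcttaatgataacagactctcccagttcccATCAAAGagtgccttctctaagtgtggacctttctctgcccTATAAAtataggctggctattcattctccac

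All 8 upstream windows of 250 bases held CTTTGAT on either strand, where 3.21% of 32851 RefSeq windows of the same length did, and 7 held TATAAA, where 12.4% did. Defa22 and Defa35 carry the first motif at 2 places and Defa30 at 1. These windows are not all distinct: the upstream 250 bases of Defa21 and Defa22 were identical, as were those of Defa23 and Defa31, and Defa2 matched Defa21 at 245 of the 250 positions. Positions were compared without alignment, so copies shifted by some bases are not seen in this way. The Defa35 and Defa22 lines share a long stretch at shifted positions, so the 8 windows are not separate matches. A match describes the letters only.

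The alpha-defensins are small antimicrobial peptides stored in Paneth cell granules. The cluster had 28 rows in the table, of which 19 passed the filter on low counts, 2 had 0 counts in all 8 libraries and 7 others were too low to test. All 19 had a negative difference (male minus female), with a median of -0.69 on the log2 scale against -0.0059 over all tested autosomal genes. Of the 19, 5 were called, at 3 loci. Between the sexes 14 did not overlap, where 4.18% of all tested genes were lower in males without overlap. The rows are not all separate measurements: Defa6 lies inside Defa24, Defa4 lies inside Defa35, and Defa23 and Defa31 had identical values. All of these rows are among the 14.

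Defa24 (NM_001024225, chromosome 8, 21734494 to 21735471, mm10) had the highest CPM of them. It stood at 4545, 4680.1, 4262 and 5059.6 CPM in the MWT libraries and at 5599.6, 8279, 7546.5 and 8029 CPM in the FWT libraries. Every male was below every female, and FWT replicate 1 was the lowest female. The means were 4636.5 ± 332 and 7364 ± 1215 CPM (SD, n = 4 each), a log2 difference of -0.67 (SE 0.11, edgeR adjusted p 0.0317). Per kb of transcript length this was 11172 against 17744 CPM, and for the shorter Defa6, whose counts overlap with these, it was 14731 against 23252 CPM. None of the 320 windows of 100 bases in its GENCODE transcript was found in a transcript of another gene.

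Defa6 (21734537 to 21735377) lies inside the interval of Defa24 and received 0.878 to 0.890 of its counts in each library, so its call (log2 -0.66, SE 0.11, edgeR adjusted p 0.0317) is not a separate measurement. Defa4 (21065066 to 21065232) lies inside Defa35 in the same way. Defa35 stood at 9.65, 11.7, 9.32 and 7.09 CPM in MWT and at 14.7, 14.6, 17.1 and 21.4 CPM in FWT, without overlap. Its log2 difference was -0.85 (SE 0.16, edgeR adjusted p 0.0464). For Defa17 (21655767 to 21656736) the 4 males lay between 171 and 194.3 CPM and the 4 females between 220.9 and 336.3 CPM, a log2 difference of -0.61 (SE 0.11, edgeR adjusted p 0.0464). Its transcript shares 90.6% of its 100-base windows with Defa3 or Defa30, and only reads with 1 mapping position were counted.

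Abundant members that did not pass by edgeR had values of the same sign. Defa30 (21134650 to 21135598), of whose windows 0.334% are shared, stood at 1956, 1897, 1829.7 and 948.5 CPM in MWT and at 2572, 4076, 3769 and 3271 CPM in FWT, with a log2 difference of -1.05 (SE 0.26, edgeR adjusted p 0.189, DESeq2 adjusted p 0.00454). MWT replicate 4 lay far below the other males. That library was also the lowest male for Defa22 and for Gm14851, but the highest for Defa29, at 387.2 CPM against 199.8 to 295.2 CPM. Defa22 and Defa21 share 40.3% and 40.4% of their windows, and gave log2 differences of -0.77 and -0.71 (edgeR adjusted p 0.160 and 0.0684). Defa23 and Defa31, whose listed intervals start at the same base, had identical values in the 8 control libraries.

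**Figure D2:**
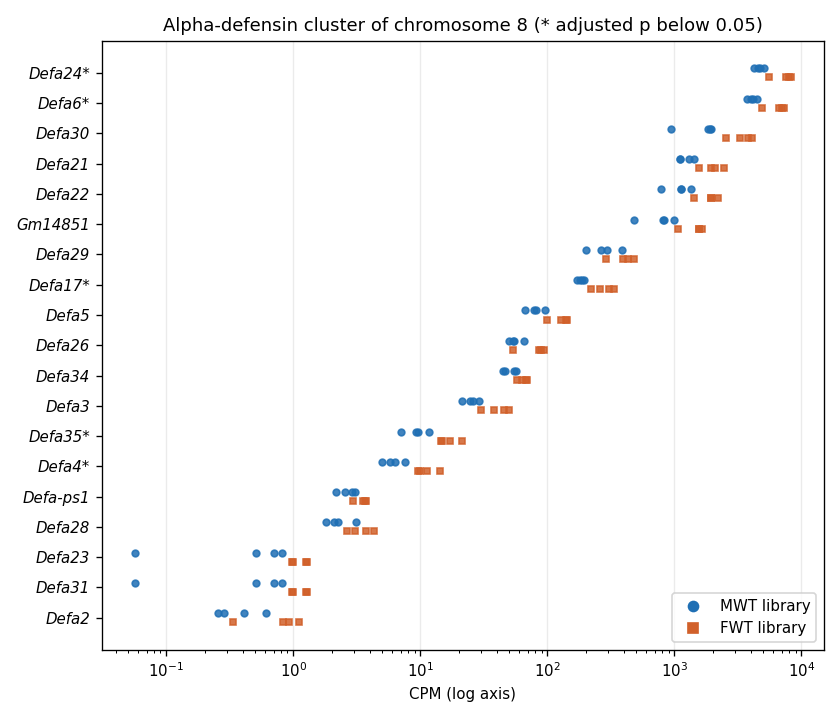
CPM of the 19 tested rows of the alpha-defensin cluster on a log axis, with circles for the 4 MWT and squares for the 4 FWT libraries, ordered by mean level. Rows with an asterisk passed an adjusted p of 0.05; the males lie to the left in every row by their means, and 14 of the 19 rows do not overlap.

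Paneth cell genes elsewhere in the genome had differences of the same sign. The Paneth list held 22 tested genes, 12 of them defensin rows, and all 22 were negative with a median of -0.66. Its summed level was 18000 to 20300 CPM in MWT and 23300 to 32700 CPM in FWT, and FWT replicate 1 was the lowest female. Of the 10 genes outside the defensins 1 was called and 4 did not overlap, with a median of -0.50. The called gene was Itln1 (NM_010584, chromosome 1, 171518124 to 171535294), which encodes intelectin, a lectin that binds microbial sugars. It stood at 1459, 1479, 1367 and 1544.5 CPM in MWT and at 1726, 2537, 2403 and 2756 CPM in FWT, a log2 difference of -0.69 (SE 0.12, edgeR adjusted p 0.0439). Lyz1, the lysozyme of Paneth cells, ranged from 5036 to 6416 CPM in MWT and from 7002 to 8879 CPM in FWT and missed the threshold, with a log2 difference of -0.49 (SE 0.096, edgeR adjusted p 0.0518). Mmp7, the protease that matures mouse alpha-defensins, gave -0.36 (SE 0.084, edgeR adjusted p 0.0985).

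Ang and Rnase4, a pair of secreted ribonucleases, start at the same position (chromosome 14, 51096000) and end at 51102009 and 51106151. They share 1.71% and 1.25% of their 100-base windows with each other. Ang stood at 22.6, 25.2, 23.4 and 23.3 CPM in MWT and at 37.0, 32.8, 29.5 and 33.3 CPM in FWT. The log2 differences were -0.49 (SE 0.084) for Ang and -0.43 (SE 0.079) for Rnase4, with edgeR adjusted p-values of 0.0334 and 0.0444.

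At the crypt base, Lgr5 (NM_010195, chromosome 10, 115450314 to 115587780), the R-spondin receptor that marks stem cells, was lower in males. Its values were 28.9, 27.5, 27.7 and 27.1 CPM in MWT and 38.1, 35.4, 36.6 and 33.98 CPM in FWT. Both groups were tight, and the log2 difference was -0.37 (SE 0.072, edgeR adjusted p 0.0464), a call kept in 5 of 22 alternative analyses. Of the 13 stem cell genes this was the only call, and 2 did not overlap, the other being Rnf43 (log2 -0.33, edgeR adjusted p 0.0947). The median of that list was -0.11. The 18 cell cycle genes were all positive with a median of 0.14, none was called and none was without overlap. Goblet cell genes had a median of 0.047, with 0 of 14 called.

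Acta1 (NM_001272041, chromosome 8, 123891758 to 123894775), skeletal muscle alpha-actin, had the smallest p of all autosomal genes tested. It stood at 39.9, 44.2, 43.97 and 46.8 CPM in MWT and at 70.3, 70.9, 80.6 and 61.1 CPM in FWT, with a gap between the groups of more than the range of the males. The means were 43.7 ± 2.85 and 70.7 ± 7.97 CPM (SD, n = 4 each), a log2 difference of -0.69 (SE 0.084, edgeR adjusted p 0.00123), and the gene passed in all 8 analyses that left out 1 library. Cald1, the actin-binding caldesmon, fell by 0.39 on the log2 scale (SE 0.075, edgeR adjusted p 0.0464). Of 15 smooth muscle genes none was called, 4 were lower without overlap and all 15 were negative, with a median of -0.28. Mylk, the kinase of myosin light chains, ranged from 823 to 859 CPM in MWT and 930.03 to 1100.4 CPM in FWT (log2 -0.28, edgeR adjusted p 0.127). The summed level of the list was 4830 to 5270 CPM in MWT and 5310 to 7710 CPM in FWT.

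The stromal list had 2 calls among 14 genes and 4 genes without overlap, with a median of -0.19. Cd34 (chromosome 1, 194938821 to 194961292), a surface sialomucin of fibroblasts and vessels, stood at 25.7, 27.99, 28.6 and 27.6 CPM in MWT and at 36.0, 36.5, 35.7 and 37.5 CPM in FWT, a log2 difference of -0.41 (SE 0.071, edgeR adjusted p 0.0334). Lum, the collagen-binding proteoglycan lumican, fell by 0.59 on the log2 scale (SE 0.11, edgeR adjusted p 0.0464), with males between 32.1 and 40.7 CPM and females between 44.9 and 64.2 CPM. Dcn, the related decorin, gave -0.33 (edgeR adjusted p 0.0684). Hmcn1, the basement membrane protein hemicentin 1, was lower at 4.54 ± 0.0793 against 7.66 ± 1.18 CPM (SD, n = 4 each; log2 -0.75, edgeR adjusted p 0.0464). Nrep and Emp2, an epithelial membrane protein, gave log2 differences of -0.53 and -0.48, with an edgeR adjusted p of 0.0464 each. Endothelial genes had a median of -0.14, with 0 of 12 called and none without overlap.

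Fut1 (chromosome 7, 45617606 to 45621059), an alpha-1,2-fucosyltransferase, stood at 1.57, 1.28, 1.58 and 1.43 CPM in MWT and at 3.12, 3.29, 3.26 and 2.66 CPM in FWT (log2 -1.06, SE 0.19, edgeR adjusted p 0.0431). It was the only edgeR call among 22 genes of fucosylation and glycosyl transfer, whose median was -0.0029, and DESeq2 also called B3galt5, described with the DESeq2 calls. Ces1c (chromosome 8, 93099016 to 93131283), a carboxylesterase known chiefly as a plasma enzyme in mice, stood at 4.78, 5.24, 4.41 and 3.01 CPM in MWT and at 6.23, 11.5, 10.3 and 8.63 CPM in FWT (log2 -1.08, SE 0.20, edgeR adjusted p 0.0490). Of 10 carboxylesterase genes it was the only call and 3 were lower without overlap. Car8, a carbonic anhydrase-related protein without that activity, gave -0.44 (SE 0.075, edgeR adjusted p 0.0317). For Tmem8b the log2 difference was -0.61 (edgeR adjusted p 0.0477), and it passed in none of the analyses that left out 1 library.

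Among autosomal genes higher in males, Prss30 (NM_013921, chromosome 17, 23972127 to 23975230), a serine protease, had the smallest p. Its values were 363.7, 369.5, 351.2 and 345.7 CPM in MWT and 261.8, 249.2, 278.4 and 270.2 CPM in FWT. The spread within each group was small beside the gap. The log2 difference was 0.43 (SE 0.063, edgeR adjusted p 0.00927). Gm3336 (chromosome 8, 70718543 to 70722635) ranged from 61.5 to 75.5 CPM in MWT and from 41.7 to 50.3 CPM in FWT (log2 0.53, edgeR adjusted p 0.0171). Gm14137 (log2 0.88, edgeR adjusted p 0.0317) overlaps Dnajc17 on the other strand, and the strand setting of the counting was not stated.

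Clca4b (NM_001033199, chromosome 3, 144910921 to 144932529), a member of the calcium-activated chloride channel regulator family, was the most abundant of the 10 per kb of transcript, at 764.8 against 510.4 CPM. Its libraries stood at 2319.6, 2016, 2265.5 and 2518.6 CPM in MWT and at 1295.7, 1424, 1824 and 1542 CPM in FWT, a log2 difference of 0.58 (SE 0.10, edgeR adjusted p 0.0348). The neighbouring copies Clca4a and Clca4c-ps share 6.49% of its windows, and Clca4a gave 0.67 (SE 0.17, edgeR adjusted p 0.179). A list of villus tip genes was written after values of these data had been seen, so nothing is read from its counts. Its 17 tested genes had 17 positive differences, a median of 0.36, 1 call and 6 genes without overlap. Among them Krt20, a keratin of mature enterocytes, ranged from 2881 to 3267 CPM in MWT and from 2151 to 2546 CPM in FWT (log2 0.36, edgeR adjusted p 0.0885), and S100a10 and Lgals3 gave 0.32 and 0.55 (edgeR adjusted p 0.0773 and 0.0985). Brush border genes had a median of 0.10, with 0 of 15 called and 1 without overlap.

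Metabolic and signalling genes made up the rest. Pkm (chromosome 9, 59656368 to 59679375), pyruvate kinase of glycolysis, stood at 484.9, 488.5, 575.3 and 593.6 CPM in MWT and at 411.03, 398.5, 413.7 and 372.3 CPM in FWT (log2 0.43, SE 0.079, edgeR adjusted p 0.0444). It was the only call among 19 glycolytic genes, also listed after values had been seen, of which 8 were higher without overlap and whose median was 0.20. Nothing is read from the counts of that list either. Ldha, lactate dehydrogenase A, gave 0.42 (edgeR adjusted p 0.0773). Smox, which oxidises spermine, Kyat1, a kynurenine aminotransferase, and Metrnl, a secreted protein, gave log2 differences of 0.59 (SE 0.10), 0.60 (SE 0.11) and 0.44 (SE 0.075), with edgeR adjusted p-values of 0.0439, 0.0334 and 0.0317. Ralgds, an exchange factor for Ral GTPases, and Stk10, a serine/threonine kinase, gave 0.35 and 0.45 (edgeR adjusted p 0.0431 and 0.0439).

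No cholesterol synthesis gene was called. Of 22 tested, 20 were positive and 6 were higher without overlap, with a median of 0.24. Fdps, which makes farnesyl diphosphate, ranged from 137.2 to 165.2 CPM in MWT and from 110.3 to 129.8 CPM in FWT (log2 0.38, SE 0.074, edgeR adjusted p 0.0532), and Mvd and Hsd17b7 gave 0.34 and 0.36 (edgeR adjusted p 0.0962 and 0.0985). In the 8 LKO libraries the median of this list was 0.31, and its members Hmgcs1 and Hsd17b7 were among the genes called there, with log2 differences of 0.46 (SE 0.068) and 0.61 (SE 0.095). Chaperones of the endoplasmic reticulum, a list written after values had been seen, had 0 of 19 called and 17 positive. Of the 19, 11 were higher without overlap, where 4.03% of all tested genes were, and the median was 0.27, with 0.26 in LKO. Since values were known when its members were chosen, nothing is read from these counts and medians. The broader list of heat shock and endoplasmic reticulum stress genes had 0 of 20 called and 5 higher without overlap, and its median was 0.34 in controls and 0.069 in LKO. Pdia4, a protein disulfide isomerase, ranged from 200.9 to 285.1 CPM in MWT and from 158.6 to 183.3 CPM in FWT (log2 0.42, SE 0.10, edgeR adjusted p 0.120). Of MHC class II genes 8 of 10 were negative, with 3 of 10 lower without overlap and a median of -0.26. H2-Ab1 stood at 679 to 857 CPM in MWT and 948 to 967 CPM in FWT (log2 -0.34, edgeR adjusted p 0.0985).

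**Figure D3:**
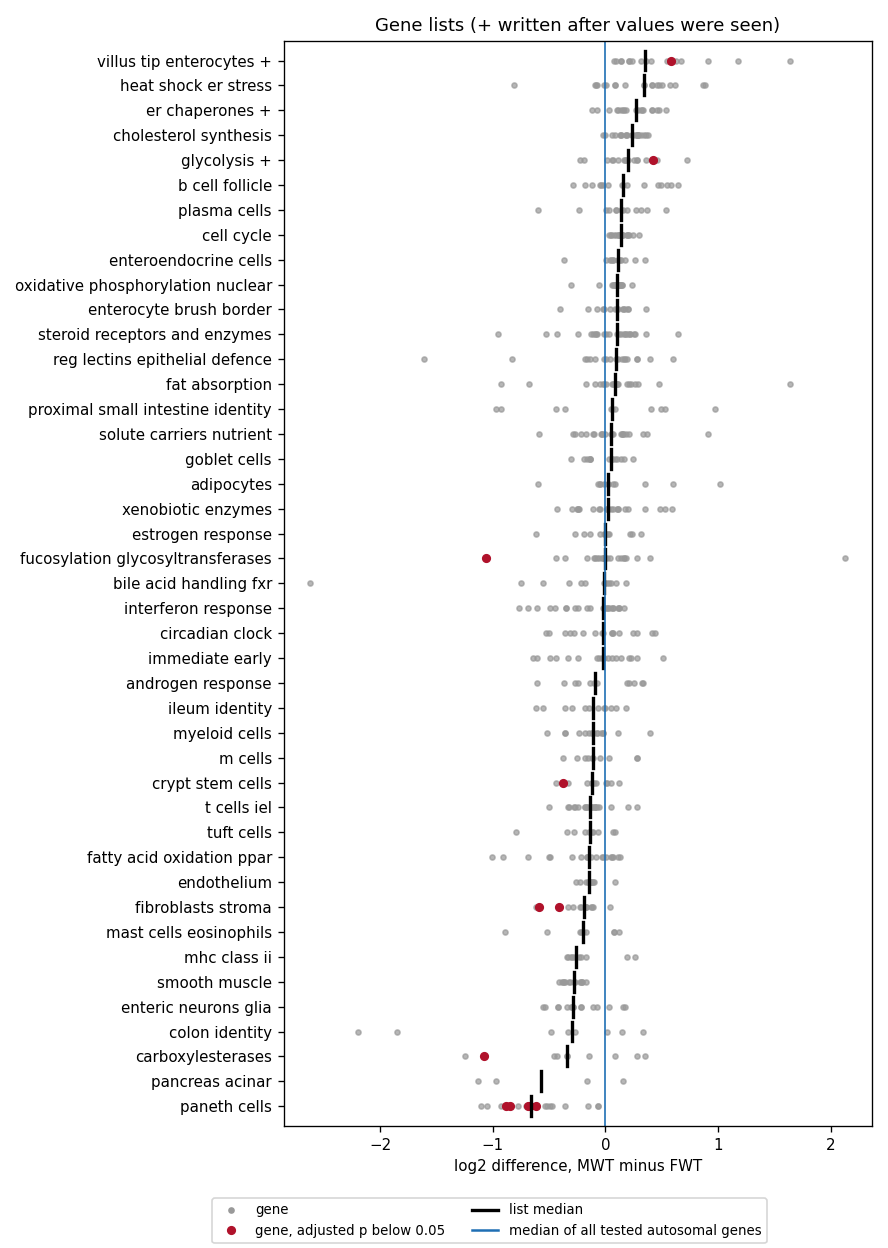
Log2 difference (MWT minus FWT) of every tested autosomal member of 43 gene lists, 1 list per row, with list medians as black bars and the median of all tested autosomal genes as a vertical line. Red points are genes with an adjusted p below 0.05; the Paneth list, with a median of -0.66, lies farthest to the left, and lists marked + were written after values of these data had been seen.

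The study measured ileal RNA to read bile acid signalling, and none of those genes was called between control males and females. Fabp6 (NM_008375, chromosome 11, 43596040 to 43601562) came closest. It stood at 3011, 3643, 2895 and 2675 CPM in MWT and at 4254, 4589, 3656 and 5474 CPM in FWT. The groups did not overlap, by the narrow gap between 3643 and 3656 CPM, and the log2 difference was -0.56 (SE 0.12, edgeR adjusted p 0.0985, DESeq2 adjusted p 0.00184). Fgf15 (NM_008003, chromosome 7, 144896532 to 144900951) stood at 1.73, 16.3, 4.58 and 1.79 CPM in MWT and at 22.1, 73.8, 2.70 and 45.2 CPM in FWT. FWT replicate 3 lay below MWT replicates 2 and 3 and far below the other females, and the log2 difference of -2.62 (SE 1.13) had an edgeR adjusted p of 0.380. Slc51a, Slc51b, Slc10a2 and Nr1h4 gave log2 differences of -0.18, 0.0017, 0.19 and 0.098, each with overlapping groups and an edgeR adjusted p of 0.589 or more. Klb, the FGF15 coreceptor, gave -0.75 (SE 0.22, edgeR adjusted p 0.183).

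Bcl6 itself (chromosome 16, 23965050 to 23981283), the floxed gene, stood at 14.1, 17.96, 15.5 and 15.9 CPM in MWT and at 9.29, 10.03, 14.1 and 15.2 CPM in FWT (log2 0.38, SE 0.15, edgeR adjusted p 0.287). No control library lacked the transcript. Of the steroid receptors, Esr1 (estrogen receptor alpha) ranged from 1.41 to 2.18 CPM in MWT and from 2.54 to 2.98 CPM in FWT, without overlap (log2 -0.52, SE 0.20, edgeR adjusted p 0.268). Nr3c1, the glucocorticoid receptor, gave -0.073 (edgeR adjusted p 0.726), and Esr2 had 1 count in all 8 libraries together. Lists of known estrogen- and androgen-responsive genes had medians of 0.0019 and -0.089, with 0 of 13 and 0 of 12 called.

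DESeq2 called genes that edgeR did not, 170 of them with at least 5 CPM and no overlap. The largest difference was in B3galt5 (chromosome 16, 96273513 to 96319858), a galactosyltransferase that makes type 1 chains of glycans. It stood at 37.4, 25.2, 63.1 and 100.7 CPM in MWT and at 22.4, 14.9, 6.73 and 7.91 CPM in FWT, so the groups met between 22.4 and 25.2 CPM (log2 2.13, SE 0.59, edgeR adjusted p 0.231, DESeq2 adjusted p 0.0231). In the LKO mice its log2 difference was 2.24 (SE 0.68, unadjusted edgeR p 0.0153). Apoa4, an apolipoprotein of chylomicrons, stood at 259.2, 155.2, 230.2 and 656.1 CPM in MWT and at 98.2, 119.2, 124.8 and 76.1 CPM in FWT (log2 1.64, SE 0.49, edgeR adjusted p 0.252), and in LKO it gave 0.018 (SE 0.30). Adh6a, Steap1 and Mfsd2a, a transporter of lysophospholipids, gave 0.98, 0.75 and 0.74 in the controls.

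On the lower side, the 5 genes with the largest differences were Bst1, Defa30, Gm14851, Reg4 and Defa22. Gm14851 and Defa22 gave -0.90 and -0.77, with DESeq2 adjusted p-values of 0.0154 and 0.000247. Bst1 gave -1.67 (SE 0.50, edgeR adjusted p 0.244), and FWT replicate 4, at 29.8 CPM, lay far above the other females at 7.79 to 9.75 CPM. Without that library its log2 difference was -1.01 (edgeR adjusted p 0.0138). Reg4, a secreted lectin of the Reg family, ranged from 154.6 to 237.7 CPM in MWT and from 265.6 to 426 CPM in FWT (log2 -0.82, SE 0.18, edgeR adjusted p 0.136).

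**Figure D4:**
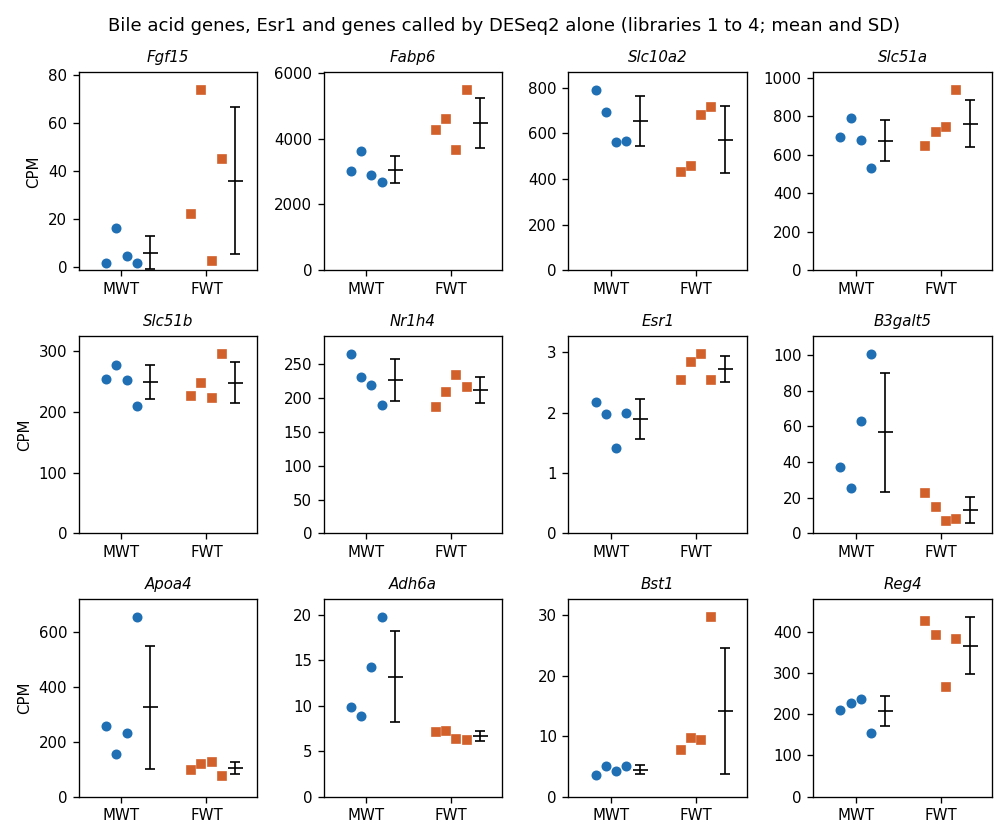
CPM of bile acid genes, Esr1 and genes called by DESeq2 and not by edgeR, with circles for MWT and squares for FWT libraries in order of replicate number and the mean and SD to their right. Fgf15 spans 2.70 to 73.8 CPM among females, whereas Slc51b has a mean of 248 CPM in both sexes.

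In the LKO mice, which share no library with the controls, 8 of 14771 autosomal genes were called between the sexes (0.0542%), and none of them was among the 30. This smaller count does not show a smaller sex difference in LKO. An unadjusted edgeR p under 0.05 was found for 3336 genes in LKO (22.6%) and 2043 of 14750 in controls. DESeq2 called 1009 genes in LKO and 238 in controls. Of the 30 genes, 28 had the same sign in LKO, where 68.8% of the 14625 genes tested in both did, and the exceptions were Lgr5 (0.088, SE 0.11) and Car8 (0.011, SE 0.11). An unadjusted edgeR p under 0.05 was reached in LKO by 7 of the 10 genes higher in control males, where 10.9% of all genes were higher with such a p, and by 9 of the 20 lower genes, where 11.7% were lower. The 9 include both Defa24 and Defa6, which are not separate measurements, and the 30 genes compared here represent 27 loci. None of the 30 reached an adjusted p of 0.05 there.

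The differences of all 30 were smaller in LKO. Their medians were 0.492 in controls and 0.295 in LKO for the higher genes, and -0.612 and -0.186 for the lower ones, but the control libraries chose these genes and the LKO libraries did not. Emp2, Gm3336 and Cd34 kept the largest part of their control difference, with -0.46 (SE 0.12), 0.47 (SE 0.13) and -0.35 (SE 0.11) in LKO. Defa24 gave -0.39 (SE 0.083, unadjusted edgeR p 0.000417). Acta1 gave -0.14 with a SE of 0.63. The Paneth list had a median of -0.15 in LKO, and Lyz1 a positive difference of 0.21 (SE 0.10). Markers of B cell follicles, summed, ranged from 195 to 397 CPM in MWT and 203 to 342 CPM in FWT, but reached 957 CPM in FLKO against at most 221 CPM in MLKO, and their part in the LKO values was not tested.

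The difference of the sex effect between the genotypes was tested directly over all 16 libraries. By edgeR 0 of 15098 autosomal genes passed (0%), by DESeq2 0 passed, and 846 had an unadjusted edgeR p under 0.05 (5.6%). Of the 30 genes 13 were among those 846, the smallest being Itln1 (0.00172), Lgr5 (0.00243) and Nrep (0.00285), each with an adjusted p of 0.845. The control libraries that chose the 30 also enter this test, so nothing is read from that count. For Fabp6 the difference of the sex effects was -0.48 on the log2 scale (unadjusted edgeR p 0.0126).

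**Figure D5:**
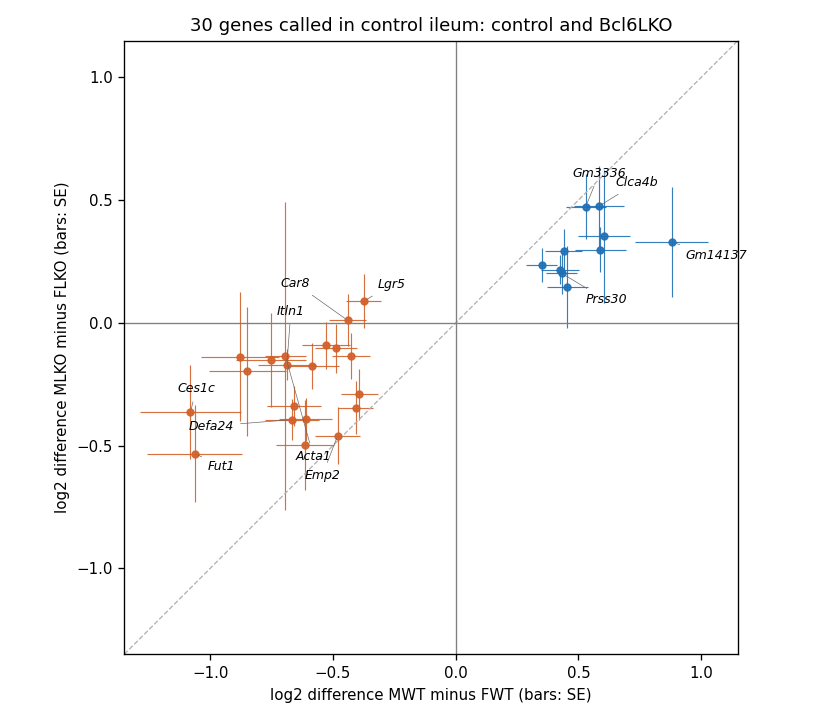
Log2 difference between males and females of the 30 called genes in control mice (horizontal) and in Bcl6LKO mice (vertical), with bars for the standard errors and a dashed line where both are equal. In 28 of 30 genes the signs agree, and all 30 lie closer to 0 on the vertical axis than on the horizontal one.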

How the data were processed

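The authors sequenced stranded poly(A) libraries as single-end reads, aligned them with STAR 2.5.2 to mm10 keeping reads with 1 mapping position, and counted exon reads per RefSeq gene with HOMER 4.10. The deposited values are raw counts. The strand option and the annotation version are not given in the sources used here. Groups and replicate numbers came from the sample titles, and every sample column was used. Reads with several positions were dropped, so near-identical copies lose counts.

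The 8 control libraries were fitted in edgeR 4.0.16 (R 4.3.3) with TMM factors, filterByExpr by group and robust quasi-likelihood fits, and males were set against females. Benjamini-Hochberg adjustment ran over all 15229 genes tested, and only chromosomes 1 to 19 are reported. The standard error is the log2 difference divided by the square root of F. DESeq2 1.42.0, limma voom 3.58.1, other scalings, filters, covariates and left-out libraries were alternatives. Tests were tried on simulated counts first.

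Genes named are all those called, up to 5 per direction that DESeq2 alone called with at least 5 CPM and no overlap, bile acid and steroid receptor genes, and up to 4 members of a list by unadjusted p. The comparison, rules and 40 lists were chosen with earlier results of these data known, and 3 lists were added after values were seen. Clca4a, Defa21, Defa29, Reg3g and Defb1 were also named after their values were seen. Coordinates are those of the deposited table.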

Additional observations from a re-analysis of the deposited data

Results flagged for a closer look

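In 98 groups of 4 libraries (49 named genes in each sex), 6 held a library whose gap to the nearest of the others exceeded Dixon's critical share of the group's range, and chance alone gives about 1 group in 20. Nrep stood at 14.9 CPM in FWT replicate 3, with the other females at 16.9 to 17.0 CPM. Cald1 stood at 133 CPM in MWT replicate 3, with the other males at 153 to 156 CPM. Ralgds stood at 123 CPM in FWT replicate 4 (others 109 to 111 CPM), and Smox at 94.4 CPM in MWT replicate 4 (others 72.6 to 75.5 CPM). Bst1 stood at 29.8 CPM in FWT replicate 4 (others 7.79 to 9.75 CPM). Defa30 stood at 949 CPM in MWT replicate 4 (others 1830 to 1960 CPM).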

How the results depend on the processing

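The count of 30 autosomal genes moved with most choices. It was 238 with DESeq2, 4 with non-robust fits, 19 with RLE scaling (10 higher, 9 lower) and 61 without a filter (26 higher, 35 lower). With at least 10 counts in every library it was 12. It was 2 when adjusted over autosomal genes alone, and 2 with an absolute log2 fold change of at least 1. With the title number as a covariate it was 9 (1 higher, 8 lower). Sets of title numbers as a factor gave 12 (7 higher, 5 lower). The B cell follicle sum as a covariate gave 8 (7 higher, 1 lower). With 1 library left out the count was 1 to 56. It stayed within 1.5 times with limma voom (24; 11 higher, 13 lower), upper-quartile scaling (37; 10 higher, 27 lower), the newer quasi-likelihood method (30) and the fit of all 16 libraries (21; 9 higher, 12 lower). Of the genes called in these 4 analyses, 23, 30, 30 and 14 were among the 30. With sets of title numbers, 5 of the 12 were. Leaving out MWT replicate 4 and FWT replicate 1 together, an alternative chosen after seeing the data, gave 25, of which 7 were among the 30. The causes were not tested. The title numbers of FWT replicates 1 and 2 form a set without males.

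No called gene changed sign in any alternative. With other fits Slc51b lay at -0.0136 (upper quartile), -0.000213 (at least 10 counts), -0.0268 (title number), -0.0675 (sets of title numbers) and between -0.0473 and 0.0975 with 1 library left out (-0.0471, -0.0389 and -0.0104 being the other values below 0), and with sets of title numbers Nr1h4 gave -0.0595 and Slc10a2 -0.141. The Paneth median lay between -0.769 and -0.568 in 18 alternatives.

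The LKO count of 8 was 1009 with DESeq2, 69 with upper-quartile scaling and 1 to 626 with 1 library left out (626 without FLKO replicate 4). The count of 0 for the difference between genotypes was 0 to 1 with 1 library left out (1 without FWT replicate 1). With the replicate number as a block the counts in controls, in LKO and for the difference were 34, 14 and 0, and 16 of the 34 were among the 30. Same-numbered males and females did not deviate together (correlations -0.11, -0.033, -0.093 and -0.017), and 0 of 4 males correlated best with its own number. This showed no pairing by number, but 4 animals per sex are too few to settle the question.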

Other observations

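No gene was called in the lists of the other cell types that follow. Enteroendocrine genes had a median log2 difference of 0.11, tuft cell genes of -0.13, T cell and intraepithelial lymphocyte genes of -0.13, myeloid genes of -0.11 and interferon response genes of -0.016. The beta-defensin gene Defb1 ranged from 0.816 to 1.93 CPM in MWT and from 0.941 to 6.46 CPM in FWT (log2 -1.61, SE 0.64, edgeR adjusted p 0.327), and it was called in LKO (log2 -2.55, SE 0.29, edgeR adjusted p 0.00231). Enteric neuron and glia genes had a median of -0.285, with 13 of 16 negative and 1 without overlap. Mast cell and eosinophil genes had a median of -0.198 (6 of 9 negative) and pancreatic acinar genes of -0.568 (3 of 4 negative, at summed levels of 10.6 to 18.3 CPM).

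Reg3g, a bactericidal lectin of enterocytes, ranged from 4594 to 13027 CPM in MWT and from 3966 to 6925 CPM in FWT (log2 0.60, SE 0.34, edgeR adjusted p 0.490). Circadian clock genes had a median of -0.017 with 0 of 17 called. Cyp2j6, a cytochrome P450 epoxygenase, ranged from 90.3 to 104.8 CPM in MWT and from 72.2 to 87.6 CPM in FWT (log2 0.36, SE 0.075, edgeR adjusted p 0.0692).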
